A study of Saccharomyces cerevisiae with 22 samples.

Results

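The histone genes of budding yeast were examined in 6 lists of Sus1 ChIP-exo peaks. They are 10 of the 6002 protein-coding genes of the nuclear genome, found by symbol in the RefSeq annotation of sacCer3. HTA1 and HTA2 encode H2A, HTB1 and HTB2 encode H2B, HHT1 and HHT2 encode H3, and HHF1 and HHF2 encode H4. HTZ1 encodes the variant H2A.Z, which is placed next to promoters, and HHO1 encodes the linker histone H1. The window of a gene ran from 500 bp before its start codon to 150 bp after its stop codon. A peak was placed at its summit, the base with the highest signal, and bases are counted from 1 at the first base of the start codon.

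Sus1 is a small subunit of the deubiquitylation module of SAGA, a co-activator complex that acetylates histone H3 and, through the protease Ubp8, removes ubiquitin from histone H2B. It is also a subunit of TREX-2, which couples transcription to mRNA export. The core histone genes are arranged as divergent pairs, in which one shared promoter region serves an H2A and an H2B gene or an H3 and an H4 gene. They are transcribed mostly before and during DNA replication, with the activators Spt10 and SBF at their promoters and the HIR complex as a repressor of all pairs but HTA2 and HTB2.

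All strains carried SUS1-MYC, so that Sus1 could be precipitated through the MYC epitope. The wild type (WT), an spt7-1180 mutant and an spt8Δ mutant were each kept at 25 °C or moved to 37 °C for 15 min. Spt7 holds SAGA together and Spt8 is a subunit of SAGA that contacts the TATA-binding protein and is missing from the related complex SLIK, which also carries a shortened Spt7. The labels call both mutants deletions, whereas the strain table gives spt7-1180 as a truncated allele and spt8 as replaced by the kanMX marker. The labels name 3 replicates for each strain and temperature and the methods describe 2, but the lists used here are 1 per condition, so they carry no error between replicates and no test between conditions was made. Where 2 values are given for a strain, the first is from 25 °C and the second from 37 °C. Untagged strains were not analysed here.

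The lists held 16593 to 20179 peaks, each with a fold enrichment, read here as one over a local background. The source of that background, the tagged libraries or a control, is not given. Fold and p-value together gave the height of a peak in reads and its background. The lowest background of a list serves here as a rough guide to its depth, which was not measured. It was 10.8 reads for WT at 25 °C and 5.98 reads for WT at 37 °C. It was 22.2 and 36.3 reads for spt7-1180 and 7.99 and 28.8 reads for spt8Δ, at 25 and 37 °C. Intervals of fold are exact 95% Poisson intervals of the height and cover counting error only. The SPT8 coding region held no summit in any list, WT included, so it checked no label. SPT7 beyond codon 1180 held 0 summits in both spt7-1180 lists and also in WT at 25 °C, against 2 in WT at 37 °C and 1 in each spt8Δ list.

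The sequences below are those at which the results turn, all read from sacCer3 (RefSeq), 5′ to 3′. First come bases 300 to 360 of both H3 coding regions, where HHT2 had its only site shared by 4 lists. HHT1 is shown from chr2:256630-256690 on the plus strand and HHT2 from chr14:575691-575751 on the minus strand. Capitals mark the 8 bases that differ between the copies.
HHT1: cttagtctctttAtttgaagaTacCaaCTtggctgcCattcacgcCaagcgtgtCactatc
HHT2: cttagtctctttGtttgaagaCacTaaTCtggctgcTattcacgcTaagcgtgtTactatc

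Next are bases 298 to 383 of both H2A coding regions, which in HTA1 held a summit in all 6 lists. The limits are the outermost of these HTA1 summits. HTA1 is shown from chr4:915827-915912 on the plus strand and HTA2 from chr2:235410-235495 on the minus strand, with the 7 differing bases in capitals.
HTA1: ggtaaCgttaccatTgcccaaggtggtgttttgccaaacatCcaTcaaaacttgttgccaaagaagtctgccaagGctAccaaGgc
HTA2: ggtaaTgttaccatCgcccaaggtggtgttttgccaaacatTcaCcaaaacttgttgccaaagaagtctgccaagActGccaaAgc

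Last are the stretches of the 4 divergent promoters that hold the paired element described for the activator Spt10, TTCCNNNNNNTTCNC, with 20 bp on each side. All are shown on the plus strand, from chr4:915094-915171, chr2:236088-236142, chr2:255924-255978 and chr14:576326-576380. Capitals mark the fixed letters of the element on either strand.
HTA1-HTB1: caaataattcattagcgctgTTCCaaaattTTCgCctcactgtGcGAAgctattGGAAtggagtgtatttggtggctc
HTA2-HTB2: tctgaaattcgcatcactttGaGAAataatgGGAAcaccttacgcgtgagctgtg
HHT1-HHF1: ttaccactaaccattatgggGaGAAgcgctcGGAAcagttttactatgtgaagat
HHT2-HHF2: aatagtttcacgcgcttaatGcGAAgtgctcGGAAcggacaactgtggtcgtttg

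In total 104 summits of the 6 lists lay in the windows of the histone genes. Of these, 74 lay in a histone coding region, 30 outside any coding region and 0 in the coding region of another gene. The divergent pairs held 20 (HTA1 and HTB1), 25 (HTA2 and HTB2), 20 (HHT1 and HHF1) and 13 (HHT2 and HHF2), and HTZ1 and HHO1 held 11 and 15. Of the 104 summits, 60 lay above the median fold of their list, 20 in its top 10% and 8 in its top 5%. These shares were somewhat above those of all peaks, which was not tested. The nearest tRNA gene, transposon, origin or non-coding RNA was 185 bp away from any of the 104 summits.

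**Figure D1:**
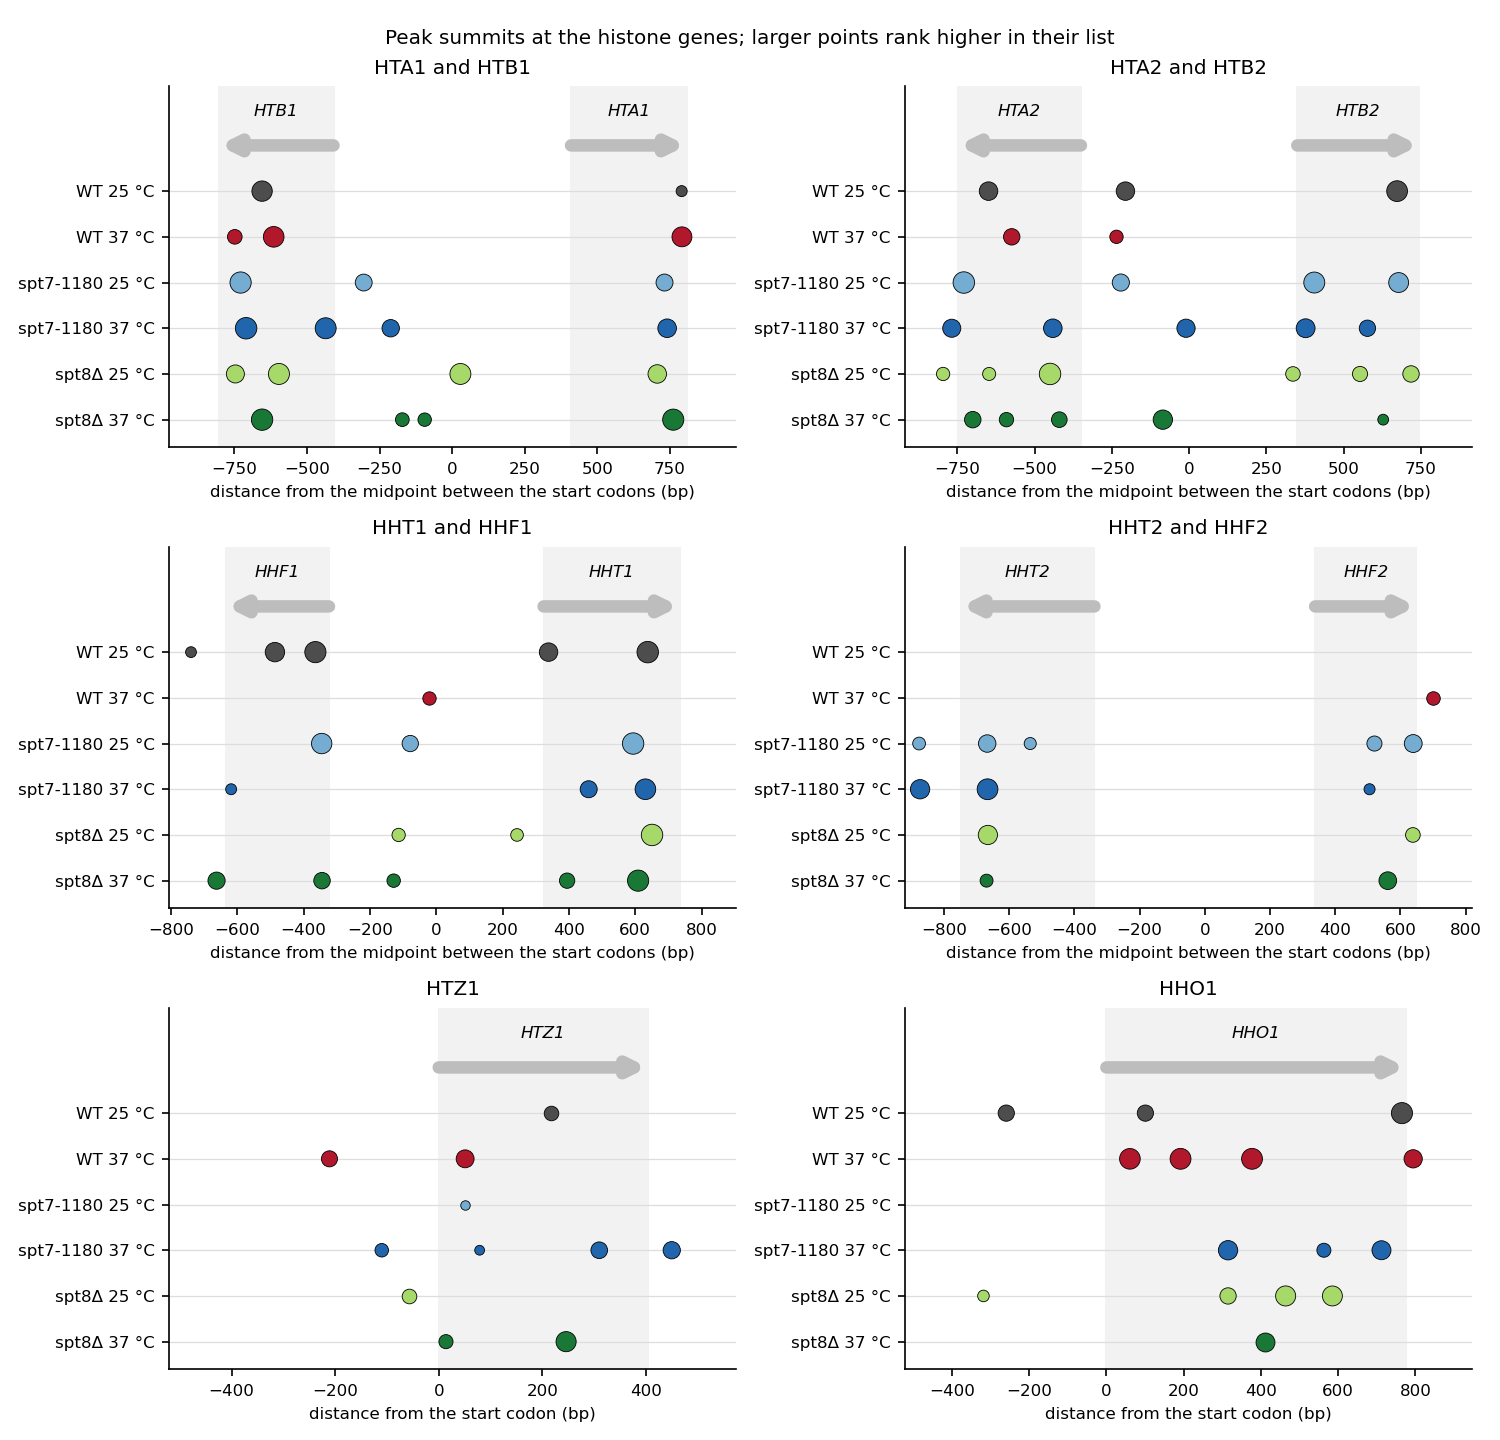
Summits of the 6 lists (rows) at the 4 divergent pairs, HTZ1 and HHO1, by distance in bp from the midpoint between the start codons or, for HTZ1 and HHO1, from the start codon. Grey bands and arrows are the coding regions, larger points rank higher in their list, and the space between HHT2 and HHF2 holds 0 summits.

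A summit lay in the window of 8 histone genes in WT at 25 °C and of 8 in WT at 37 °C. The numbers were 9 and 10 for spt7-1180 and 10 and 10 for spt8Δ, at 25 and 37 °C. Among all genes the same window held a summit in 84.5, 87.2, 83.5, 84.5, 85.2 and 81.4% of cases, in the same order of lists, so these counts are near the background. The window of a short gene is smaller, and among the 1710 genes with a coding region of at most 777 bp, the length of HHO1, the shares were 71.6, 74.7, 70.3, 71.3, 72.3 and 68.8%. The histone counts were above these shares in every list, which was not tested. The genes without a summit were HHT2 and HHF2 in WT at 25 °C, HTB2 and HHT2 in WT at 37 °C, and HHO1 in spt7-1180 at 25 °C.

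Except in WT at 37 °C, the histone genes stood further above short genes in their coding regions than in the whole window. A coding summit was found in 8 of the 10 genes in WT at 25 °C, where 49.8% of short genes had one, and in 5 in WT at 37 °C, where 53.1% had one. For spt7-1180 it was 9 at 25 °C (short genes 52.0%) and 10 at 37 °C (53.7%). For spt8Δ it was 8 at 25 °C (50.2%) and 10 at 37 °C (49.6%). WT at 37 °C was thus the one list in which the count was near the share of short genes, and there HTB2, HHT1, HHF1, HHT2 and HHF2 lacked a coding summit. Expression was not matched in this comparison and no test was made.

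Counted per length, the histone coding regions held 2.61 summits per kb in WT at 25 °C (95% Poisson interval 1.30 to 4.67, 11 summits in 4218 bp). The value was 1.90 in WT at 37 °C (0.819 to 3.74), 2.84 in spt7-1180 at 25 °C (1.47 to 4.97) and 3.79 at 37 °C (2.17 to 6.16). In spt8Δ it was 3.08 at 25 °C (1.64 to 5.27) and 3.32 at 37 °C (1.81 to 5.57). Short genes held 1.48 to 1.70 per kb, which is below the interval of the histone genes in spt7-1180 at 37 °C and both spt8Δ lists and inside it in the other 3 lists. The intervals of the 6 lists overlapped each other.

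The 500 bp before the start codon showed less. Upstream summits were listed for 2 histone genes in WT at 25 °C (39.7% of all genes), 4 in WT at 37 °C (44.8%), 4 in spt7-1180 at 25 °C (38.0%) and 4 at 37 °C (40.8%). In spt8Δ they were listed for 7 at 25 °C (41.8%) and 5 at 37 °C (40.2%). The 7 genes in spt8Δ at 25 °C rested on 6 summits, because both genes of a pair can share one, and the number was 4 with an upstream region of 300 bp or a -log10 q of at least 5. The share of all genes was not counted under those settings. The order of the lists was not stable. With that -log10 q, WT at 37 °C had the lowest number, 1, and spt8Δ at 37 °C the highest, 5, and with any overlap of a peak WT at 25 °C had 4, as had WT at 37 °C and both spt7-1180 lists.

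**Figure D2:**
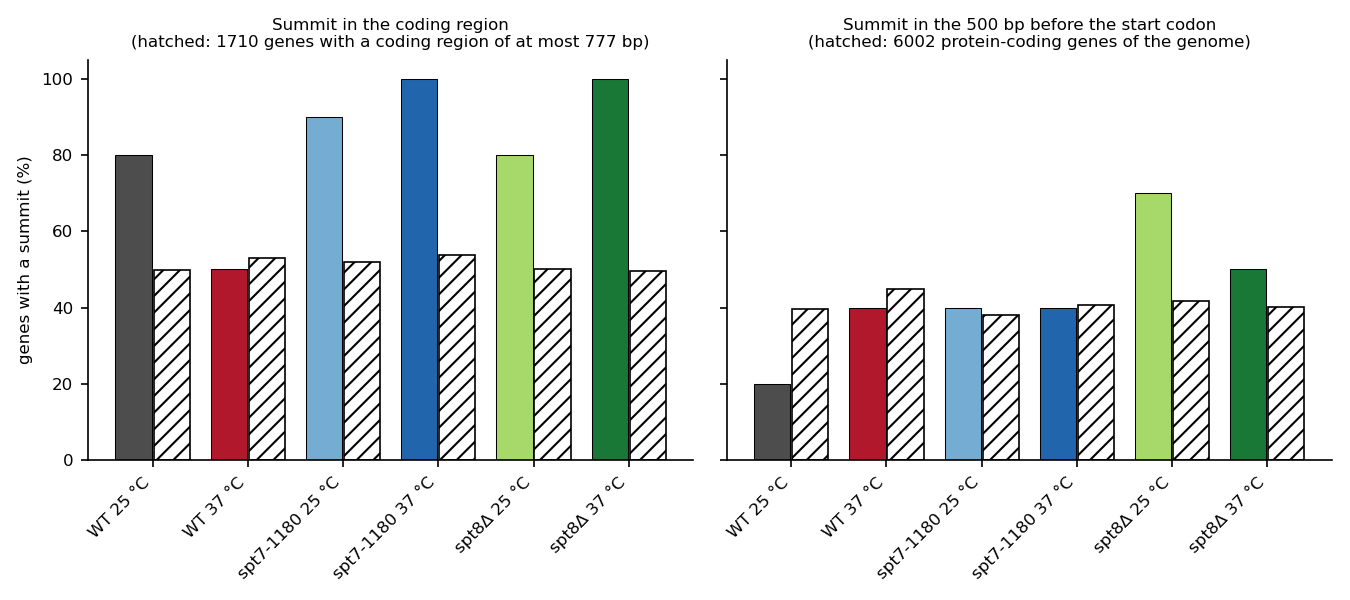
Percent of the 10 histone genes with a summit in each list (solid), beside the 1710 short genes for the coding region and all 6002 genes for the 500 bp upstream (hatched). Coding shares reach 100% in spt7-1180 and spt8Δ at 37 °C, and upstream shares run from 20% to 70%.

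Within the coding region the summits were found more often toward the stop codon. With each coding region divided into 3 equal parts, 19 summits of the 6 lists lay in the first part, 20 in the middle part and 35 in the last part, which is 47.3% against 36.3% of 7684 summits in short coding regions. The last part held most in spt8Δ at 25 °C, with 8 of 13, and fewest in WT at 37 °C, with 2 of 8. Sites that recur between lists are counted more than once here, so the 74 summits are not independent.

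Between the divergent start codons 16 summits were listed, 5 at HTA1 and HTB1, 6 at HTA2 and HTB2, 5 at HHT1 and HHF1 and 0 at HHT2 and HHF2. The Spt10 element was found, searching both strands, in the 500 bp upstream of 8 of the 10 histone genes, all but HTZ1 and HHO1, against 2.90% of all 6002 genes. Spt10 is a known activator of these promoters, so finding its element there was given in advance and is not a result of these data. The genes of a pair share a promoter and are not independent counts. Between HTA1 and HTB1 the element was present in 2 copies, and it occurred once in each of the other shared promoters. The element in the HHT2 and HHF2 promoter therefore lay in a region without any summit.

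The strongest of the 16 was in spt8Δ at 25 °C, at base 56 of the HTA1-HTB1 stretch printed above. It lay inside the second element, 381 bp before HTA1 and 437 bp before HTB1, with a fold of 5.45 (4.05 to 7.19), rank 1282 and 48 reads over a background of 7.99. No other list had a summit within 50 bp of either element there. In the HTA2-HTB2 promoter the nearest summit was 10 bp from the element (spt7-1180 at 37 °C, fold 2.58, rank 7017). In the HHT1-HHF1 promoter summits lay 15 bp (spt7-1180 at 25 °C, fold 2.63), 28 bp (WT at 37 °C, fold 2.72) and 50 bp (spt8Δ at 25 °C, fold 2.67) from it. In all, 5 of the 16 summits were within 50 bp of an element, as were 17% of the bases of these 3 promoters. The other 15 summits had folds from 2.11 to 3.57 and ranks of 4210 or beyond.

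Other promoter words were not shared in this way. The SBF word CGCGAAA was found upstream of 4 histone genes (HTB1, HHT2, HHF2 and HHO1) and of 5.81% of all genes, and CACGAAA was found upstream of HTZ1 alone and of 7.15% of all genes. TATAAA, searched likewise on both strands, was found upstream of 5 histone genes and of 60.5% of all genes. A match is only a run of letters and was not tested for binding.

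HTA1 (YDR225W, coding region chr4:915530-915928, plus strand) had the site found in most lists. Its coding summit lay at base 382 in WT at 25 °C and 383 at 37 °C, at 298 and 353 in spt8Δ, and at 323 and 332 in spt7-1180. The fold was 2.18 (1.58 to 2.93, rank 15002) in WT at 25 °C and 4.89 (3.67 to 6.41, rank 3294) at 37 °C. It was 2.74 and 2.63 in spt7-1180, ranks 8375 and 6417, and 3.85 and 3.92 in spt8Δ, ranks 5401 and 975. A summit was thus listed in bases 298 to 383 in every strain and at both temperatures, but in the top 10% of a list only in spt8Δ at 37 °C. The summits did not coincide, as those of WT lay nearer the stop codon than all those of the mutants. The spt8Δ peak at 25 °C ended at chr4:915866, before the WT peaks began at 915870 and 915871. Joined within 25 bp, the WT summits fall into a site apart from the mutant ones. The local background at this gene was raised, at 1.61 to 1.85 times the lowest background of the list, so the folds are lower than the heights alone would give.

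HTB1 (YDR224C, chr4:914317-914712, minus strand), the divergent partner of HTA1, had a coding summit in all 6 lists and the highest mean percentile of the histone genes. Its strongest summits had folds of 4.42 (3.31 to 5.78) in WT at 25 °C and 5.59 (4.0 to 7.62) at 37 °C. They were 4.44 (3.63 to 5.38) and 4.48 (3.83 to 5.21) in spt7-1180 and 5.56 (4.14 to 7.31) and 4.36 (3.64 to 5.17) in spt8Δ. Every one of these lay above the median peak of its list, and their ranks were 2347 and 1932 in WT, 853 and 383 for spt7-1180, and 1170 and 554 for spt8Δ. The strongest of several summits passes that median more easily than a single peak does.

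All but 1 of the HTB1 coding summits fell into 2 sites, the exception being base 28 in spt7-1180 at 37 °C (fold 3.44, rank 1531). Bases 302 to 341 held a summit in WT at 37 °C, both spt7-1180 lists and spt8Δ at 25 °C, and bases 189 to 247 held one in both WT and both spt8Δ lists. The summits of WT at 25 °C and spt8Δ at 37 °C were at the identical base, 247. Just outside the window, 165 to 173 bp after the HTB1 stop codon, 4 lists had a further summit in no coding region. These had folds of 4.25 (WT at 25 °C, rank 2838), 4.74 and 3.81 (spt7-1180 at 25 and 37 °C, ranks 575 and 855) and 4.96 (spt8Δ at 37 °C, rank 305). The nearest summits inside that edge are the coding ones above, so the edge of the window falls between 2 sites of this gene.

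HTA2 (YBL003C, chr2:235394-235792, minus strand), the second H2A gene, had 16 summits, more than any other member. In coding it was listed at base 300 in WT at 25 °C (fold 3.61, rank 5407) and 225 at 37 °C (fold 3.44, rank 9022). In spt7-1180 it was listed at 380 at 25 °C (fold 5.30, 4.41 to 6.32, rank 343) and at 92 at 37 °C (fold 2.63, rank 6427). In spt8Δ at 25 °C it was listed at 101 (fold 7.01, 5.40 to 8.95, rank 349) and 298 (fold 2.66, rank 12675), and at 37 °C at 71, 242 and 351 (folds 2.21 to 2.45). The fold of 7.01 was the highest of all 104 summits, while 3 of the lists placed the gene below the middle of all genes. A site 115 to 144 bp before the start codon was listed in both WT lists and in spt7-1180 at 25 °C, with folds of 3.57, 2.72 and 2.76. In the stretch printed above, where HTA1 had a summit in all 6 lists, HTA2 had one in 4, namely WT and spt7-1180 at 25 °C and both spt8Δ lists. The limits of that stretch were set by the HTA1 summits, so the 2 counts are not a fair comparison. In spt7-1180 at 37 °C a peak at chr2:235309-235504 covered the whole HTA2 stretch, with its summit 20 bp after the stop codon.

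HTB2 (YBL002W, chr2:236492-236887, plus strand), its partner, had a summit in 5 lists and none in WT at 37 °C. The strongest was at base 324 in WT at 25 °C (fold 4.81, 3.80 to 6.01, rank 1640), at 56 in spt7-1180 at 25 °C (fold 4.09, 3.32 to 5.0, rank 1347) and at 28 at 37 °C (fold 2.68, rank 5874). In spt8Δ it was at 369 at 25 °C (fold 3.28, rank 8476), and at 37 °C 435 bp before the start codon (fold 2.95, rank 4210). HTB1 and HTB2 encode nearly the same protein and their coding regions were 87.9% identical, yet only HTB1 had a summit in all 6 lists.

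HHT1 (YBR010W, chr2:256331-256741, plus strand), an H3 gene, had its main site at bases 271 to 328, in 5 lists. The fold there was 6.37 (5.02 to 7.97, rank 324) in WT at 25 °C, 4.82 (3.98 to 5.80, rank 527) and 3.22 (2.67 to 3.85, rank 2257) in spt7-1180, and 6.89 (5.30 to 8.82, rank 381) and 3.95 (3.28 to 4.73, rank 910) in spt8Δ. WT at 37 °C had none in the coding region and a single upstream summit of fold 2.72 and 18 reads, rank 13128. Among the histone genes this was the widest gap between the 2 WT lists, at percentile 95.5 of all genes at 25 °C and 20.4 at 37 °C. The WT list at 37 °C also had the lowest background of all, and a fold of 2.72 was the lowest of its histone summits, shared with the upstream summit of HTA2.

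HHF1 (YBR009C, chr2:255373-255684, minus strand), the H4 partner of HHT1, had coding summits in 4 lists. A site at bases 22 to 42, just after the start codon, was listed in WT at 25 °C (fold 5.44, 4.20 to 6.93, rank 855), in spt7-1180 at 25 °C (fold 3.66, rank 2464) and in spt8Δ at 37 °C (fold 2.45, rank 8771). WT at 37 °C and spt8Δ at 25 °C had only the upstream summit shared with HHT1. In spt7-1180 at 37 °C the one summit was at base 296, with a fold of 1.74 and rank 18043. The heat-treated WT list thus placed both genes of this pair at percentile 20.4, by the same summit.

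HHT2 (YNL031C, chr14:575640-576050, minus strand), the other H3 gene, was listed differently from its copy. Neither WT list had a summit in its window, and all 4 mutant lists had one at nearly the same place, base 330 or 329 for spt7-1180 and base 328 or 332 for spt8Δ. The folds were 2.83 (2.29 to 3.45, rank 7597) and 3.31 (2.82 to 3.87, rank 1938) in spt7-1180 and 4.12 (3.10 to 5.38, rank 4197) and 2.07 (1.64 to 2.57, rank 13398) in spt8Δ. In the genome 395 of 54648 sites, 0.723%, were listed in exactly these 4 lists, where 3970 sites were in 4 lists of any kind. The pattern was not particular to HHT2 among the histone genes. The site at the end of HTA2, with summits spread over 97 bp, was listed in the same 4 lists. The spt8Δ list at 25 °C held the HHT2 site with 52 reads over a background of 11.9. The lowest background of that list, 7.99 reads, lay between the 5.98 of WT at 37 °C and the 10.8 of WT at 25 °C, and those of the other 3 mutant lists lay above both. A further pair of summits lay 128 and 125 bp after the stop codon in the 2 spt7-1180 lists. Whether the WT lists fall short of a threshold here could not be read from lists of called peaks.

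HHF2 (YNL030W, chr14:576727-577038, plus strand), the H4 partner of HHT2, had the lowest mean percentile of the 10 genes by fold. Ranked by height over the lowest background of the list, HHF1 was lower, at 33.2 against 34.5. It had no summit in WT at 25 °C and 1 in WT at 37 °C, 52 bp after the stop codon (fold 2.79, rank 12898). Its strongest summit had a fold of 2.90 (base 302) and 1.76 (base 168) in spt7-1180 and 2.92 (base 301) and 2.62 (base 224) in spt8Δ. The best rank among these was 6906, in spt7-1180 at 25 °C. HHF1 and HHF2 were 97.4% identical in coding sequence, the most alike of the 4 pairs of copies.

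The copies raise the question of whether reads could be told apart. HTA1 and HTA2 were 93.7% identical and HHT1 and HHT2 93.2%, with identical runs of up to 80 bp in the H4 genes. Of the 36-base words of the coding regions, 9.89% (H2A), 0% (H2B), 20.7% (H3) and 33.6% (H4) occurred more than once in the genome. The 36 bases centred on each of the 104 summits occurred once for all of them. The read length is not given in the sources used here, and how the mapping treated reads that fit both copies was not tested.

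HTZ1 (YOL012C, chr15:303579-303983, minus strand) had summits in all 6 lists, none of them in the top 10%. Its strongest had folds of 2.79 (rank 11080) and 3.90 (rank 6691) in WT, 1.66 (rank 17540) and 2.43 (rank 8789) in spt7-1180, and 2.92 (rank 10793) and 3.21 (rank 2856) in spt8Δ. Bases 15 to 80 held a summit in 4 lists, at the identical base 52 in WT at 37 °C and spt7-1180 at 25 °C. The mean percentile of 37.5 was below that of the H2A genes HTA1 (56.5) and HTA2 (63.4).

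HHO1 (YPL127C, chr16:308828-309604, minus strand) had its best ranks in WT, at percentile 85.3 at 25 °C and 80.0 at 37 °C, against 8.26 to 67.2 in the mutants. WT at 37 °C had 4 summits, at bases 62, 193 and 378 and 18 bp after the stop codon, with folds of 5.61, 5.92, 5.88 and 4.01. WT at 25 °C had 3, of which the strongest was at base 766 (fold 5.23, 4.04 to 6.67, rank 1068). The spt7-1180 list at 25 °C had none, and at 37 °C it had 3 with folds of 2.07 to 2.79. In spt8Δ there were 4 at 25 °C (folds 2.35 to 4.57) and 1 at 37 °C (fold 2.85). The number of summits thus followed neither strain nor temperature, and base 316 was shared by spt7-1180 at 37 °C and spt8Δ at 25 °C. HHO1 was also the only histone gene whose percentile was as high as 80.0 in WT at 37 °C.

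**Figure D3:**
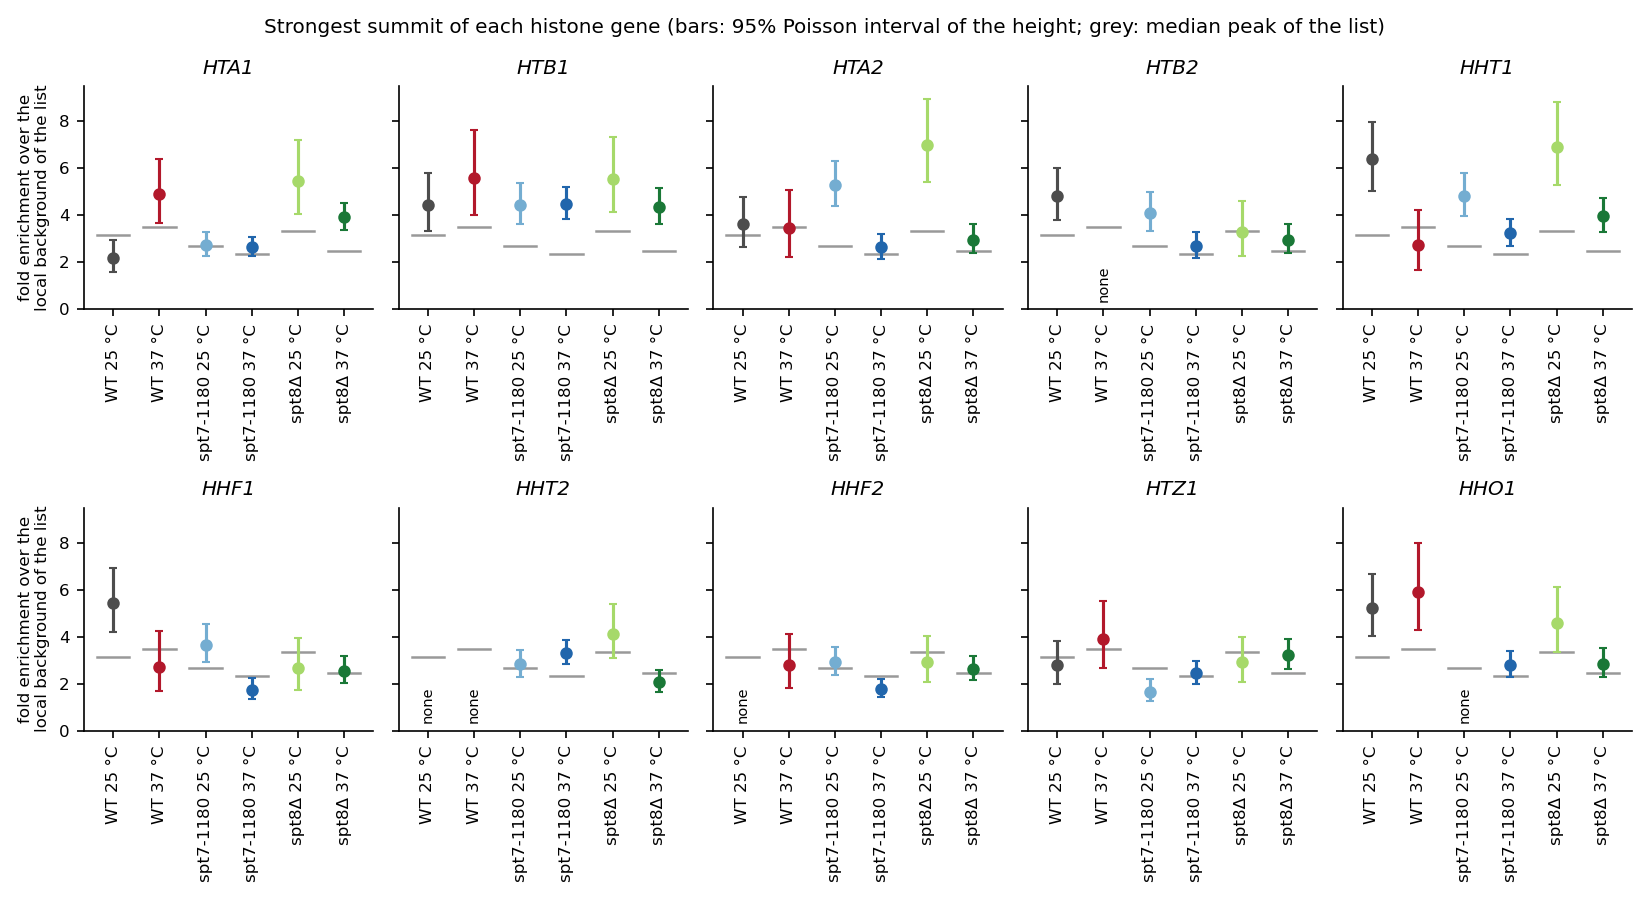
Fold enrichment of the strongest summit of each histone gene in each list (points) with exact 95% Poisson intervals of the height, and the median peak of that list (grey lines). HTB1 lies above the grey line in all 6 lists, and HTB2, HHT2, HHF2 and HHO1 have lists without a summit. The line is the median of single peaks, not of the strongest summit per gene.

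Joined within 50 bp, the 104 summits made 52 sites. Of these, 25 were listed once, 8 (15.4%) in at least 4 lists and 2 (3.85%) in at least 5, namely those of HTA1 and HHT1. In the genome 12.0% of 54648 sites were in at least 4 lists and 4.77% in at least 5, so the histone sites recurred about as often as others. The 8 sites were 2 in HTB1 and 1 each in HTA1, HTA2, HTB2, HHT1, HHT2 and HTZ1, and 7 of them lay within coding sequence throughout. The exception was at the end of HTA2, where the summits ran from base 351 to 48 bp after the stop codon.

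The number of summits per list was 14 and 13 in WT, 16 and 22 in spt7-1180 and 20 and 19 in spt8Δ, at 25 and 37 °C. The mutants were above WT at both temperatures, also with equal numbers of peaks in every list (14 and 13, 15 and 19, 20 and 19). When every list was limited to its 5000 strongest peaks, the numbers were 6 and 5, 6 and 6, and 7 and 6, so that the lists differed by at most 2 summits and spt7-1180 at 25 °C equalled WT. The lowest background moved with the number of summits in part. It was higher in 3 of the 4 mutant lists than in both WT lists, but not in spt8Δ at 25 °C, at 7.99 reads. With 1 list per condition, strain and library cannot be told apart.

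Ranked by the strongest summit among all 6002 genes, in which genes without one share the lowest rank, HTB1 averaged percentile 84.8 over the lists and HHT1 77.7. HTA2 (63.4), HHO1 (58.6), HTA1 (56.5) and HTB2 (52.4) followed, and HHF1 (43.8), HTZ1 (37.5), HHT2 (35.9) and HHF2 (27.6) were lower. The median histone gene stood at percentile 60.6 and 26.7 in WT, 57.7 and 49.4 in spt7-1180, and 61.8 and 59.8 in spt8Δ. Among the short genes alone the medians were higher, at 75.7 and 43.1, 72.7 and 66.5, and 76.2 and 74.2. WT at 37 °C was the lowest on both scales. No histone gene was in its top 10% of short genes, against 1 to 3 genes in the other lists. The ranges of neighbours in this order overlapped, as the HHT1 values ran from 20.4 to 95.5 and those of HTB1 from 71.3 to 95.8. Ranked by height over the lowest background of the list, the mean percentile of HTA1 was 78.7, above HTB1 at 71.4 and HHT1 at 68.0. At the other end HHF1 (33.2) then lay below HHF2 (34.5). The order at the top and at the bottom thus depends on the background used.

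**Figure D4:**
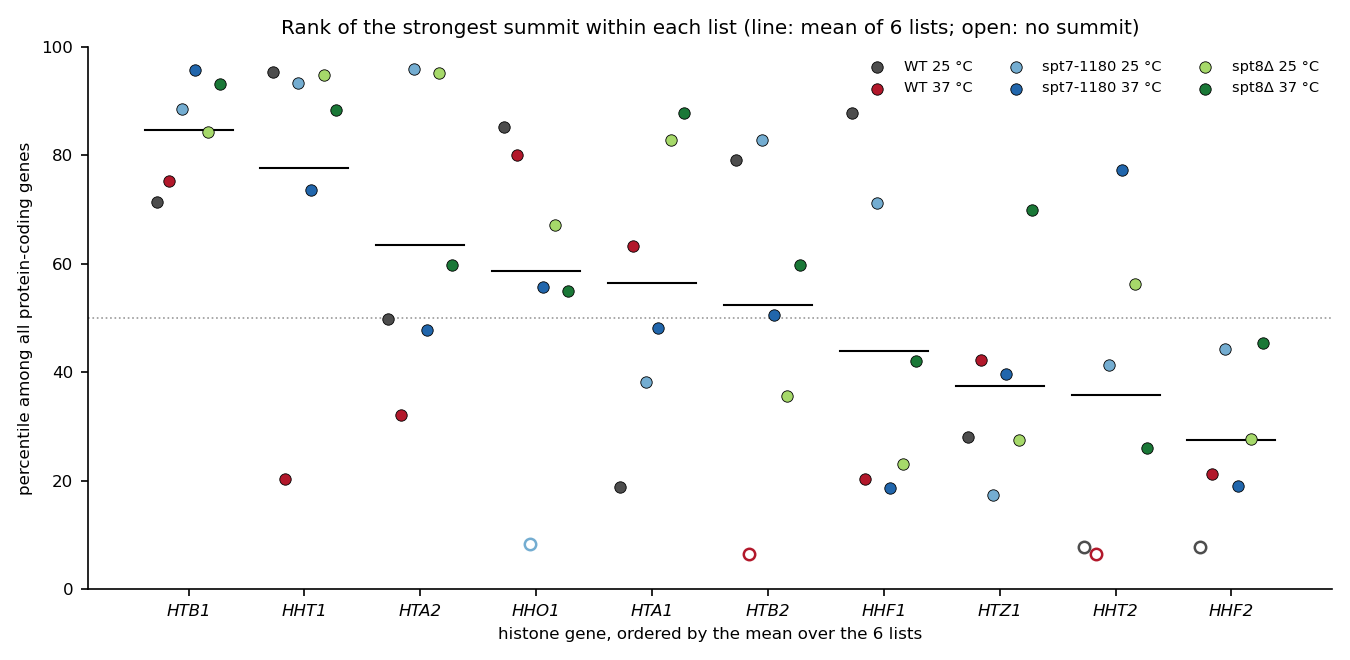
Percentile of each histone gene among all protein-coding genes in each list, by the fold of its strongest summit (points, open where no summit was listed), with the mean of the 6 lists (lines). HTB1 is at or above 71.3 in every list, and HHT1 drops to 20.4 in WT at 37 °C.

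The genes whose 6 percentiles were most like those of HTB1 were POL5 (Euclidean distance 7.16 percentile points), MRN1 (10.7) and RPL30 (11.9). POL5 takes part in ribosomal RNA synthesis and RPL30 encodes a protein of the large ribosomal subunit. Their levels were 73.3, 70.0 and 75.1 in WT at 25 °C, where HTB1 was at 71.3. In spt7-1180 at 37 °C they were 93.7, 87.8 and 89.1, where HTB1 was at 95.8.

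Genes that regulate histone genes, chaperone histones or encode another H3 were listed about as often as other genes. Of 16 such genes, a summit in the window was found for 16 and 14 in WT, 15 and 15 in spt7-1180, and 16 and 13 in spt8Δ, where 81.4 to 87.2% of all genes had one. In at least 5 lists a summit was found for 14 of the 16, and among all genes 14.1% had one in 5 lists and 63.1% in 6. The HIR genes HIR1, HIR2, HIR3 and HPC2, the activators SPT10 and SPT21, the cell-cycle factors SWI4, SWI6 and MBP1, the boundary factor YTA7 and the chromatin assembly genes RLF2 and MSI1 had one in 6 lists. CSE4, the centromeric H3, and RTT106, an H3 and H4 chaperone, had one in 5. Most are far longer than the histone genes, and upstream of the start codon only MSI1 and RTT106 had a summit in 5 lists, while RLF2 had none.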

How the data were processed

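Sus1-MYC ChIP-exo reads of WT, spt7-1180 and spt8Δ cells were mapped by the authors to sacCer3 with BWA (version 0.6.2 in the submitters' processing notes, which also name CASAVA 1.7, whereas the study's methods name another BWA version). They deposited 1 peak list per strain and temperature. The fold enrichment in the deposited lists was read as a ratio of the height to a background around the peak. Whether that background came from the tagged libraries or from a control is not known here. The −log10 p and −log10 q are those the authors' peak caller gave, with no −log10 q under 1.302. Which caller and control were used, and how replicates were combined, is not given in the sources used here. Lists were assigned by the name the authors gave them, with 0 columns left unmatched.

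Summits were placed on the RefSeq annotation of the same build. The members, gene lists and windows were chosen with earlier results of these data known. Fold and p-value were solved for the height in whole reads and its Poisson mean (fold as height plus 1 over background plus 1), which fitted 99.7 to 99.99% of the peaks. Folds of different lists were not compared by test or ratio, and no p-value was computed. Genes named are the 10 members, the 16 regulators with a summit in 5 or 6 lists or in none, and the 3 genes nearest to the member with summits in most lists (ties by mean percentile) in their 6 percentiles; SPT7 and SPT8 were added as a check of the labels, and the promoter words were chosen after the summits were seen. Alternatives were a −log10 q of at least 5, equal numbers of peaks (16593) or the 5000 strongest, midpoints or any overlap, upstream regions of 300 and 1000 bp, the nearest start codon only, a window to the stop codon, sites joined within 25 or 100 bp, and ranks by −log10 q. Ranking by height over the lowest background was added after seeing the data. Python 3.11.15, numpy 2.4.6, pandas 2.3.3 and scipy 1.17.1 were used, and the counting was tested on simulated data.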

Additional observations from a re-analysis of the deposited data

How the results depend on the processing

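Counts of histone genes and summits in each list moved by less than 1.5 times under most alternatives, and the restriction to the strongest peaks changed them most. Shares of all genes and of short genes were not counted under these alternatives, so the counts of histone genes have no background beside them. With the 5000 strongest peaks of each list, a summit remained in the window of 5 and 3 histone genes in WT at 25 and 37 °C. It remained for 5 and 4 in spt7-1180 and for 6 and 7 in spt8Δ. In the coding region it remained for 5, 3, 5, 4, 5 and 5 genes in all 6 lists in the same order, upstream for 0, 0, 0, 0, 2 and 2, and 6, 5, 6, 6, 7 and 6 summits were left. With a −log10 q of at least 5, WT at 37 °C had a summit in 5 windows and 1 upstream region, and spt8Δ at 25 °C in 4 upstream regions. The upstream counts were the least stable. With 300 bp they were 2 in WT at 37 °C, 2 in spt7-1180 at 37 °C, 4 in spt8Δ at 25 °C and 3 at 37 °C. With 1000 bp they were 5 in WT at 25 °C, 8 and 9 in spt7-1180 and 8 in spt8Δ at 37 °C. Counting any overlap of a peak gave 4 in WT at 25 °C, and assigning each summit to the nearest start codon gave 3 in spt8Δ at 37 °C. Sites in at least 4 lists numbered 4 when joined within 25 bp (3.59% of sites in the genome), 11 within 100 bp and 7 with equal numbers of peaks, against 8. Of 374 values of fold under other settings 363 stayed inside their counting interval. By −log10 q, 54 of 60 percentiles moved by less than 10 points, and by height over the lowest background 29 of 60 did. No paired analysis was possible because each condition has 1 list. A deeper list can call weaker sites, and a gene without a summit is not shown to lack Sus1.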
